A study of Arabidopsis thaliana with 75 samples.

Results

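The ECT genes of Arabidopsis thaliana encode readers of N6-methyladenosine (m6A), the methyl mark on internal adenosines of mRNA. Members were taken by gene symbol as ECT1 to ECT10 (AT3G03950, AT3G13460, AT5G61020, AT1G55500, AT3G13060, AT3G17330, AT1G48110, AT1G79270, AT1G27960 and AT5G58190, in that order), which gave 10 genes among 32844 gene loci of the count tables. All 10 symbols matched the RefSeq table for TAIR10.1. The mark is placed by a writer complex whose catalytic subunits are MTA and MTB, is removed by demethylases such as ALKBH10B, and is bound through the YTH domain of the ECT proteins. ECT2, ECT3 and ECT4 are known for their overlapping roles in the timing of leaf formation and in trichome branching, ECT1 and ECT2 were first described as partners of the calcium-regulated kinase CIPK1, and ECT5 acts with ECT2 and ECT3 against a plant virus. By sequence, ECT1 to ECT4 form one clade, ECT5, ECT9 and ECT10 another, and ECT6, ECT7 and ECT8 one more, and the results follow that order where the data allow.

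The series held 75 samples in 25 groups. Seedlings of 14 days were wild-type Col-0, the mta line or 35SALKBH10B, in which the 35S promoter drives the demethylase gene, and were untreated or given 1 µM flg22, the flagellin peptide that triggers pattern immunity, for 4 h. Untreated libraries are labelled 0 h for GMUCT and m6A, whereas column names of the untreated mRNA carry 4 h. Which time holds for the untreated mRNA was not settled. The flg22 libraries of GMUCT and m6A are labelled 4 h, so flg22 and elapsed time cannot be told apart in those assays. Leaves came from Col-0 and mta plants of 4 weeks in groups labelled 00 and 24; the study's design text names the bacterium Pseudomonas syringae for the leaves while a label of the 24 group names flg22, so these groups are called only 00 and 24. The nature of the mta allele and whether replicates came from separate plants are not stated, and the p-values below therefore speak of sample-to-sample spread that could be technical. Assays were mRNA sequencing (12 seedling and 12 leaf libraries, Col-0 and mta), GMUCT, which sequences uncapped and cleaved polyadenylated RNA (18 seedling libraries, all 3 lines), and m6A immunoprecipitation, given as peak lists (17 seedling and 9 leaf libraries). Each group had 3 libraries, except that untreated Col-0 seedlings had 2 m6A lists. The mRNA samples of 35SALKBH10B were not analysed here, and the series had no m6A sample of mta leaves at 24.

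Counts on gene loci came to 9442047 to 13222937 per seedling mRNA library and 20467621 to 44052628 per leaf library, and GMUCT libraries held 3107893 to 41465534 reads. The mta line could not be checked in mRNA, because MTA had 0 counts in every library, where another locus on the same strand covers it. In GMUCT, MTA read 21.3 ± 2.75 RPM (reads scaled by library size; SD, n = 3) in untreated Col-0 and 9.86 ± 0.189 in untreated mta, a log2 difference of -1.03 ± 0.26 (SE; limma, Benjamini-Hochberg adjusted p = 0.027). Since the covering locus shares the strand of MTA, the source of these GMUCT reads cannot be told apart. ALKBH10B read 37.0 ± 0.872 RPM in untreated Col-0 and 440 ± 29.5 in untreated 35SALKBH10B (limma, log2 difference 3.53 ± 0.18, adjusted p = 3.4e-10). In 3 groups 1 library stood apart from its mates: GMUCT Col-0 untreated replicate 2, the shallowest library, correlated with them at 0.939 to 0.94 where they reached 0.993 with each other, GMUCT 35SALKBH10B flg22 replicate 3 at 0.915 to 0.917 against 0.965, and leaf mRNA mta 00 replicate 1 at 0.953 to 0.968 against 0.983. Results that these libraries change are given with and without them.

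ECT6 and ECT10 could not be measured in mRNA. Both had 0 counts in all 24 libraries, and in each case another annotated locus on the same strand, AT3G17340 or AT5G58200, covers 99.7% of the span of ECT6 and 98.7% of that of ECT10. GMUCT values were deposited for both. The other 8 members passed the filter on low counts in both tissues. In seedlings the counts did not separate strands: 26.1 to 27.2% of all counts fell on non-coding features annotated opposite to genes, against 0.1 to 0.18% in leaves, so that reads from a member and from a gene overlapping it on the other strand cannot be told apart there.

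ECT2 was the most abundant of the measurable ECT mRNAs in untreated seedlings, followed by ECT3. ECT2, at chr3:4384563-4388592 on the minus strand (TAIR10), read 471, 496 and 558 CPM (counts scaled by library size and TMM) in the 3 untreated Col-0 libraries. ECT3, at chr5:24556994-24559936 on the minus strand, read 162, 155 and 160 CPM. Per kilobase of gene span, introns included, the mean levels were 126 ± 11.2 CPM for ECT2 and 54.1 ± 1.26 for ECT3 (SD, n = 3). ECT2 alone made up 50.3 to 54.6% of the summed level per kilobase of the measurable members. That sum lacks ECT6 and ECT10, whose levels in mRNA are unknown. The other 6 lay close together: ECT1 (12.6 ± 0.772 CPM per kilobase), ECT4 (11.3 ± 0.506), ECT5 (10.4 ± 0.506), ECT7 (10.1 ± 0.26), ECT9 (8.55 ± 0.337) and ECT8 (7.7 ± 0.947). Among these neighbours the library ranges overlapped for ECT4 and ECT5, for ECT5 and ECT7, and for ECT9 and ECT8, so those pairs are not ordered beyond their spread. ECT2 stood at percentile 96.8 of the 19887 genes tested and ECT9 at 59.9.

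The flg22 comparison asked how the readers' mRNAs respond to the immune peptide, and in Col-0 they moved in different directions: ECT2 rose while ECT1, ECT3, ECT8 and ECT9 fell. Called were 5 of 8 members (1 higher, 4 lower), where 58.7% of all genes tested were called (27.9% higher, 30.7% lower), so the share of members is close to the background. The members' median log2 fold change was -0.5 and that of all genes -0.1. After flg22, ECT3 read 64.4, 71.5 and 77.9 CPM, and no flg22 library reached the lowest untreated one. It fell by 1.16 ± 0.09 on the log2 scale (SE; edgeR quasi-likelihood test, Benjamini-Hochberg adjusted p = 2.0e-14).

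ECT2 read 664, 556 and 637 CPM after flg22. Replicate 2 fell just below the highest untreated library, so the ranges overlapped. Its log2 fold change was 0.29 ± 0.07 (edgeR, adjusted p = 5.2e-04). Its share of the summed level per kilobase of the measurable members went to 66.9 to 71.1%. ECT1, at chr3:1021146-1024015 on the plus strand, read 35.1, 38.8 and 34.9 CPM untreated and 17.9, 20.4 and 25.6 after flg22. These ranges did not overlap, and the log2 fold change was -0.77 ± 0.13 (edgeR, adjusted p = 4.3e-06). ECT4 (-0.25 ± 0.12, edgeR, adjusted p = 0.069), ECT5 (-0.06, adjusted p = 0.68) and ECT7 (0.08, adjusted p = 0.56) did not pass the test; ECT4 passed it without Col-0 flg22 replicate 1 (-0.33, adjusted p = 0.028).

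ECT8 read 35.4, 27.9 and 33.9 CPM untreated and 17.3, 21 and 19.6 after flg22, again without overlap (edgeR, log2 fold change -0.75 ± 0.14, adjusted p = 1.1e-05). ECT9 read 32.8, 31.9 and 30.3 CPM untreated and 16.3, 15.3 and 14.4 after flg22 (edgeR, log2 fold change -1.04 ± 0.14, adjusted p = 5.2e-08). Every ECT9 library after flg22 lay below every untreated one. All 5 calls held in each of the 12 alternatives that scale, filter or leave out libraries.

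Genes on the other strand overlap ECT9, ECT3 and ECT8 among these members. AT1G27950, which overlaps ECT9 by 68 bases, fell by 1.54 ± 0.1 on the log2 scale in the same comparison (edgeR, adjusted p = 4.5e-16). It had 1747, 1498 and 1372 counts in untreated Col-0, where ECT9 had 431, 373 and 314. After flg22 it had 578, 358 and 407 counts and ECT9 had 180, 140 and 132. AT5G61010 overlaps ECT3 by 50 bases and rose by 1.37 ± 0.09, opposite to ECT3. AT1G79280 overlaps ECT8 by 709 bases and gave -0.23 ± 0.16 (edgeR, adjusted p = 0.22). A non-coding feature annotated inside ECT3 on the other strand, AT5NPC04073, gave -1.21 ± 0.11 (edgeR, adjusted p = 3.0e-12), close to the value of ECT3. Inside ECT2, AT3NPC01084 and AT3NPC01085 gave 0.27 ± 0.08 and 0.32 ± 0.08 (edgeR, adjusted p = 0.003 and 7.9e-04), and inside ECT8, AT1NPC05125 gave -0.82 ± 0.29 (adjusted p = 0.015) and AT1NPC05126 gave -0.62 (adjusted p = 0.088). ECT1 has no overlapping feature in the annotation. The parts of the ECT9 and ECT8 values that come from AT1G27950 and AT1G79280 cannot be told apart in these counts.

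In mta seedlings flg22 lowered ECT3, ECT4, ECT8 and ECT9 and raised ECT5, while ECT1 and ECT2 did not pass the test. Again 5 of 8 members were called (1 higher, 4 lower), against 42.2% of all genes (22% higher, 20.2% lower), with medians of -0.32 and -0.02. ECT3 read 124, 141 and 137 CPM untreated and 74.9, 81.6 and 88.0 after flg22. These ranges did not overlap, and the log2 fold change was -0.72 ± 0.09 (edgeR, adjusted p = 7.6e-09). ECT4, at chr1:20719470-20722918 on the plus strand, read 50.5, 53.4 and 47.6 CPM untreated and 37.2, 30.6 and 30.7 after flg22. The highest flg22 library was well below the lowest untreated one (edgeR, log2 fold change -0.62 ± 0.12, adjusted p = 4.6e-05). The opposite-strand feature inside ECT4, AT1NPC03256, gave -0.75 ± 0.17 (edgeR, adjusted p = 4.8e-04).

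ECT9 fell by 0.6 ± 0.14 in mta (edgeR, adjusted p = 7.4e-04), and AT1G27950 fell by 1.15 ± 0.11. ECT8 read 40.2, 41.8 and 41.5 CPM untreated and 36.4, 26.4 and 29.0 after flg22, with a log2 fold change of -0.43 ± 0.13 (edgeR, adjusted p = 0.0073). Its call was lost without mta flg22 replicate 2 (-0.34, adjusted p = 0.068). ECT5, at chr3:4180154-4183975 on the plus strand, read 39.3, 31.7 and 36.5 CPM untreated and 48.2, 46.9 and 40.3 after flg22. Its rise of 0.33 ± 0.11 (edgeR, adjusted p = 0.016) was lost without mta flg22 replicate 1 (0.28, adjusted p = 0.091), without mta flg22 replicate 2 (0.30, adjusted p = 0.068) and without mta untreated replicate 2 (0.25, adjusted p = 0.12). Of the features opposite ECT5, AT3NPC01035 gave 0.05 (edgeR, adjusted p = 0.83). AT3G13061 and CNT2085314 also lie opposite ECT5, each over 786 bases (20.6%), and no change is given for them here. Reads of ECT5 and of AT3G13061 cannot be told apart in these counts. ECT1 gave -0.22 ± 0.13 (edgeR, adjusted p = 0.17), ECT2 0.03 ± 0.07 (adjusted p = 0.8) and ECT7 -0.03.

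**Figure D1:**
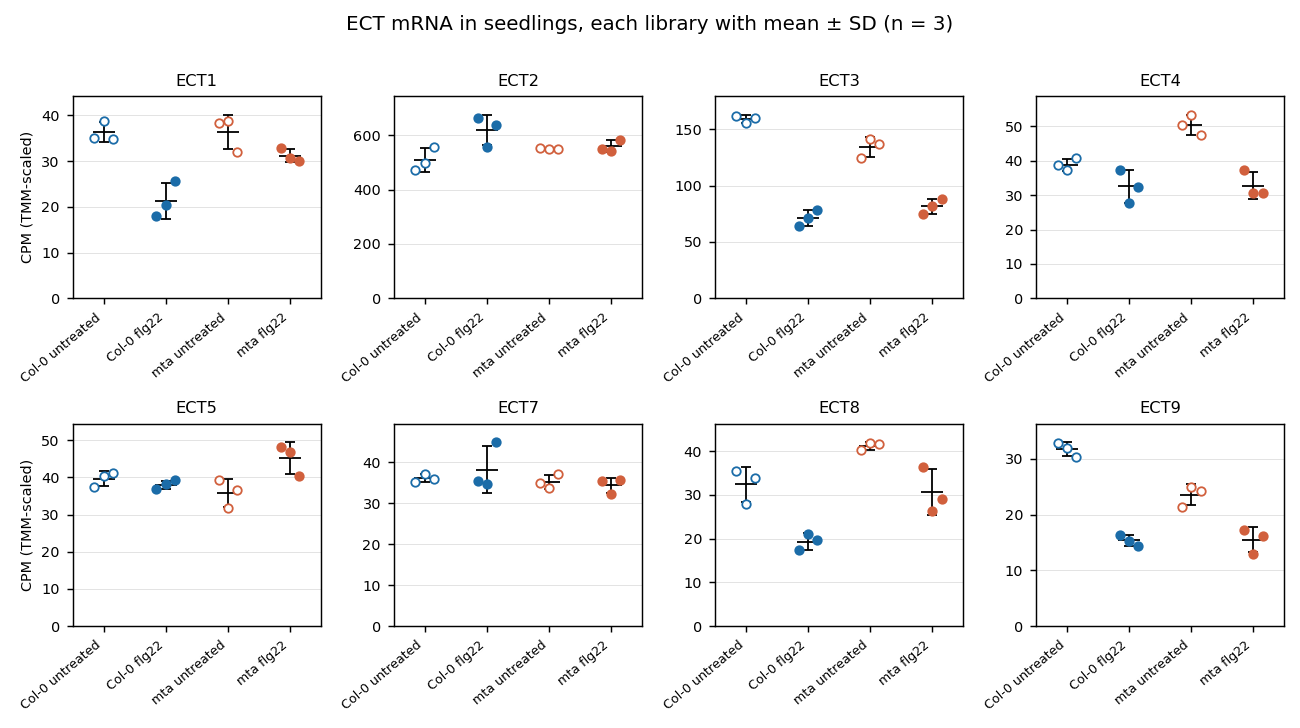
CPM of the 8 measurable ECT mRNAs in seedlings (vertical axes, TMM-scaled, each from 0), with 1 point per library, horizontal bars at the mean and error bars of 1 SD (n = 3), in Col-0 (blue) and mta (orange), untreated (open) and after flg22 (filled). ECT3 goes from 155 to 162 CPM down to 64.4 to 77.9 in Col-0, and ECT1 falls from 34.9 to 38.8 CPM to 17.9 to 25.6 in Col-0 but reads 30.0 to 32.8 in mta after flg22.

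The test of the difference between the lines' responses called 2 of 8 members, against 19.1% of all genes (6.91% higher). Both had a higher, that is less negative, log2 fold change in mta. For ECT3 the log2 fold change in mta was higher than that in Col-0 by 0.44 ± 0.12 (edgeR interaction term, adjusted p = 0.007). This held in all 17 alternatives. For ECT1 the log2 fold change in mta was higher by 0.55 ± 0.18 (edgeR, adjusted p = 0.03). The ECT1 call was lost without any 1 of 5 libraries, with adjusted p of 0.11 without Col-0 flg22 replicate 1 or mta untreated replicate 3, 0.085 without Col-0 untreated replicate 2, 0.079 without mta flg22 replicate 1 and 0.051 without mta flg22 replicate 2. For ECT2 the difference was -0.26 ± 0.1 (edgeR, adjusted p = 0.055); it passed the threshold under DESeq2 (-0.30, adjusted p = 0.028), RLE scaling (adjusted p = 0.029), no count filter (adjusted p = 0.043), and without Col-0 flg22 replicate 2 (-0.34, adjusted p = 0.0042), Col-0 untreated replicate 3 (-0.34, adjusted p = 0.014) or mta flg22 replicate 3 (-0.30, adjusted p = 0.043). ECT4 gave -0.37 ± 0.17 (edgeR, adjusted p = 0.13; 0.035 without Col-0 flg22 replicate 2), ECT5 0.39 ± 0.16 (adjusted p = 0.084) and ECT9 0.45 ± 0.2 (adjusted p = 0.12).

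**Figure D2:**
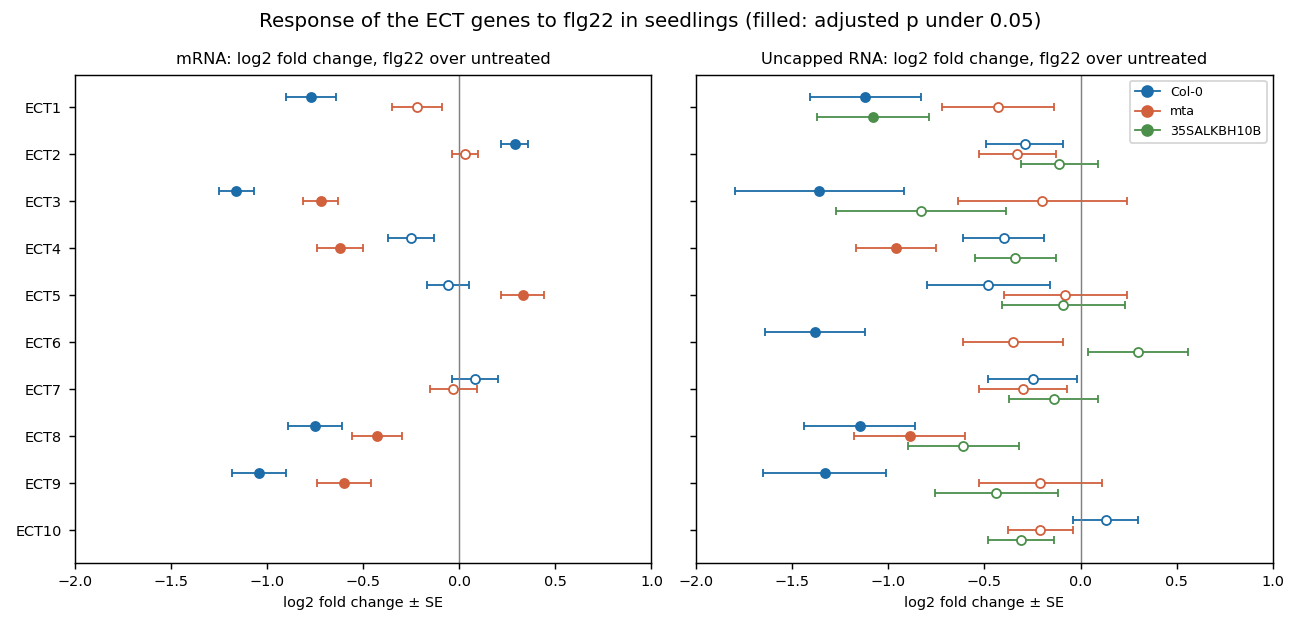
Log2 fold change of flg22 over untreated (horizontal axes, error bars of 1 SE) for each ECT gene in seedlings, for mRNA at left in Col-0 (blue) and mta (orange) and for uncapped RNA at right with 35SALKBH10B in green; filled points have an adjusted p under 0.05, and mRNA of ECT6 and ECT10 was not measurable. In mRNA, ECT3 sits at -1.16 in Col-0 and -0.72 in mta, and ECT1 at -0.77 and -0.22.

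Some marker genes moved with flg22 as well. In Col-0 the summed level of 6 markers of dividing cells, all detected, ranged from 27.7 to 35.1 CPM untreated and from 18.0 to 20.7 after flg22, with 2 of 6 called lower. That of 4 markers of green tissue, all detected, went from 8520 to 9303 CPM to 5194 to 6233, with 3 of 4 called lower. Of all genes tested in Col-0, 30.7% were called lower and 27.9% higher, so 2 of 6 is close to the background. In mta the dividing-cell sum went from 32.3 to 39.7 CPM to 24.3 to 28.7 and the green sum from 8936 to 9667 CPM to 6015 to 6340. Called lower there were 1 of 6 dividing-cell and 4 of 4 green markers, against 20.2% of all genes. The sum of 8 root markers was 41.2 to 48.9 CPM in untreated Col-0 and 44.2 to 52.8 after flg22, where COBL9 was at 0; 6 of the 8 were measured, with 3 called lower, 1 higher and a median log2 fold change of -1.52. Of 4 seed markers 1 was measured and called higher in Col-0, and their sum went from 0 to 0.387 CPM to 3.72 to 5.78. In mta, 2 of the 6 measured root markers were called lower and 0 higher, with a median log2 fold change of -0.1. The measured seed marker was called higher in mta too. Fewer cells of a type and less RNA per cell cannot be told apart in whole seedlings or leaves, and the part of these shifts in the ECT values was not tested.

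Without treatment, ECT4 and ECT8 were higher and ECT3 and ECT9 lower in mta than in Col-0. These were 4 of 8 members, against 33.1% of all genes (18.1% higher, 15% lower), and each of the 4 calls was lost when some 1 library was left out. ECT4 was higher in mta by 0.38 ± 0.12 (edgeR, adjusted p = 0.011), and its 47.6 to 53.4 CPM lay above the 37.2 to 40.7 CPM of Col-0; the call was lost without Col-0 untreated replicate 2 (adjusted p = 0.052) or mta untreated replicate 2 (adjusted p = 0.053). ECT9 gave -0.43 ± 0.13 (edgeR, adjusted p = 0.012), with 21.4, 24.9 and 24.3 CPM in mta; without mta untreated replicate 1 it gave -0.36 (adjusted p = 0.086), and AT1G27950 gave -0.8 ± 0.1. ECT3 gave -0.25 ± 0.08 (edgeR, adjusted p = 0.02), lost without Col-0 untreated replicate 1 (adjusted p = 0.068) or 3 (0.06) or mta untreated replicate 1 (0.15). ECT8 gave 0.34 ± 0.13 (edgeR, adjusted p = 0.035), lost without Col-0 untreated replicate 2 (adjusted p = 0.21) or any 1 of the 3 untreated mta libraries (0.067 to 0.085). ECT2 was at 551, 548 and 548 CPM in mta, inside the Col-0 range.

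After flg22, ECT1 and ECT8 were higher in mta than in Col-0, 2 of 8 members against 38.0% of all genes (18.1% higher). ECT1 read 32.8, 30.7 and 30.0 CPM in mta, above all 3 Col-0 libraries (edgeR, log2 difference 0.56 ± 0.13, adjusted p = 0.0011). ECT8 read 30.6 ± 5.18 CPM in mta and 19.3 ± 1.87 in Col-0 (SD, n = 3), without overlap (edgeR, log2 difference 0.67 ± 0.14, adjusted p = 1.6e-04). Both calls held in all 12 alternatives. AT1G79280, which overlaps 709 bases (16.8%) of ECT8 on the other strand, was higher in mta by 1.18 ± 0.15 untreated and 1.55 ± 0.15 after flg22 (edgeR, adjusted p = 3.2e-08 and 1.3e-10), so the ECT8 difference in seedlings cannot be told apart from that of its neighbour in these counts. The features opposite the rest of ECT8 gave 0.69 (AT1NPC05125; edgeR, adjusted p = 0.066) and 0.22 (AT1NPC05126; adjusted p = 0.64). ECT2 gave -0.15 (edgeR, adjusted p = 0.086) and passed the threshold under RLE scaling (-0.19, adjusted p = 0.029), under DESeq2 (adjusted p = 0.03) and without Col-0 flg22 replicate 2 (-0.22, adjusted p = 0.0069). ECT3 passed it without mta flg22 replicate 1 (0.25, adjusted p = 0.046) and ECT5 without mta flg22 replicate 3 (0.32, adjusted p = 0.044).

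In leaves, where counts were assigned by strand, ECT2, ECT3 and ECT8 were the most abundant of the measurable members. At 00 in Col-0, ECT2 read 297, 338 and 327 CPM (79.6 ± 5.26 per kilobase), ECT3 32.7 ± 1.83 CPM per kilobase and ECT8 26.9 ± 1.67 (SD, n = 3), each without overlap with the next. ECT8 read 121, 112 and 108 CPM. ECT4, ECT1, ECT7 and ECT5 followed at 9.36 to 11.3 CPM per kilobase with overlapping ranges between neighbours. ECT9 was near the bottom, at 1.97, 2.55 and 1.91 CPM, percentile 18.0 of the 18824 genes tested, whereas its seedling value of 30.3 to 32.8 CPM includes reads that may come from AT1G27950. Levels are not compared across the tissues, since strand and counting differed.

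Between 00 and 24 in Col-0, ECT1, ECT2, ECT4, ECT5 and ECT7 rose and ECT3 fell. This was 6 of 8 members (5 higher, 1 lower), against 68.3% of all genes tested (35.6% higher, 32.7% lower), so the share is again near the background, with medians of 0.32 and 0.02. ECT2 reached 560, 483 and 539 CPM at 24, above every library at 00 (edgeR, log2 fold change 0.72 ± 0.1, adjusted p = 5.8e-05). ECT1 went from 29.8, 28.9 and 27.1 CPM to 52.6, 43.7 and 45.5, without overlap (edgeR, 0.72 ± 0.1, adjusted p = 4.2e-05). ECT5 went from 37.9, 34.7 and 34.8 CPM to 56.4, 54.7 and 57.9, without overlap (edgeR, 0.65 ± 0.11, adjusted p = 2.5e-04). These 3 calls held in every alternative.

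The other 3 calls depended on single libraries. ECT3 went from 90.5, 96.9 and 101 CPM to 73.8, 85.4 and 70.8, a log2 fold change of -0.33 ± 0.13 (edgeR, adjusted p = 0.036). It was lost without Col-0 00 replicate 2 (adjusted p = 0.072) or 3 (0.092), without Col-0 24 replicate 1 (0.095) or 3 (0.13), and with no count filter (0.053). ECT4 gave 0.35 ± 0.11 (edgeR, adjusted p = 0.015), lost without Col-0 00 replicate 2 (0.058) or 3 (0.074) or Col-0 24 replicate 3 (0.051). ECT7 gave 0.29 ± 0.12 (edgeR, adjusted p = 0.043), lost without any 1 Col-0 library at 00 (0.088 to 0.12), without Col-0 24 replicate 1 (0.17, adjusted p = 0.2), under RLE scaling (0.052) and with only the compared groups fitted (0.058). ECT8 (0.09, edgeR, adjusted p = 0.7) and ECT9 (-0.44 ± 0.21, adjusted p = 0.078) did not pass.

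In mta leaves 5 of 8 members were called between 00 and 24 (4 higher, 1 lower), against 59.0% of all genes (30.9% higher, 28.1% lower), with medians of 0.34 and 0.01. ECT1 rose from 18.1, 16.6 and 17.4 CPM to 27.3, 30.0 and 31.6, without overlap (edgeR, 0.77 ± 0.1, adjusted p = 5.8e-05). ECT4 rose from 54.1, 46.6 and 46.9 CPM to 78.9, 69.2 and 73.9, without overlap (edgeR, 0.59 ± 0.11, adjusted p = 8.3e-04). ECT5 rose by 0.55 ± 0.11 and ECT3 fell by 0.45 ± 0.13 (edgeR, adjusted p = 0.0014 and 0.0089). ECT2 went from 451, 442 and 434 CPM to 554, 561 and 553, without overlap. Its rise was 0.33 ± 0.1 (edgeR, adjusted p = 0.014), lost without mta 00 replicate 2 (adjusted p = 0.067) or 3 (0.064). ECT8 read 182, 112 and 121 CPM at 00 and 200, 149 and 176 at 24, a log2 difference of 0.34 ± 0.19 (edgeR, adjusted p = 0.14); without mta 00 replicate 1, the library that stands apart, it was 0.59 (adjusted p = 0.0068). Marker sums moved here as well. In Col-0 the dividing-cell markers went from 16.5 to 26.1 CPM to 9.43 to 14.9, with 3 of 6 called lower. The green markers there went from 32252 to 42412 CPM to 13735 to 24073, with 4 of 4 called lower. Of all genes in Col-0 leaves, 32.7% were called lower. In mta the dividing-cell sum went from 19.5 to 27.4 CPM to 7.07 to 12.3 (4 of 6 called lower). The green sum there went from 44489 to 57980 CPM to 28384 to 30362 (4 of 4 called lower). The sum of 8 root markers was 46.6 to 56.1 CPM at 00 and 49.5 to 55.4 at 24 in Col-0. In mta it was 49.0 to 51.2 CPM and 42.6 to 48.0. Of the 8, 2 were measured, with 1 called higher in Col-0, against 35.6% of all genes, and 0 called in mta. The root markers EXP7 and PLT1 were at 0 in every leaf group.

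**Figure D3:**
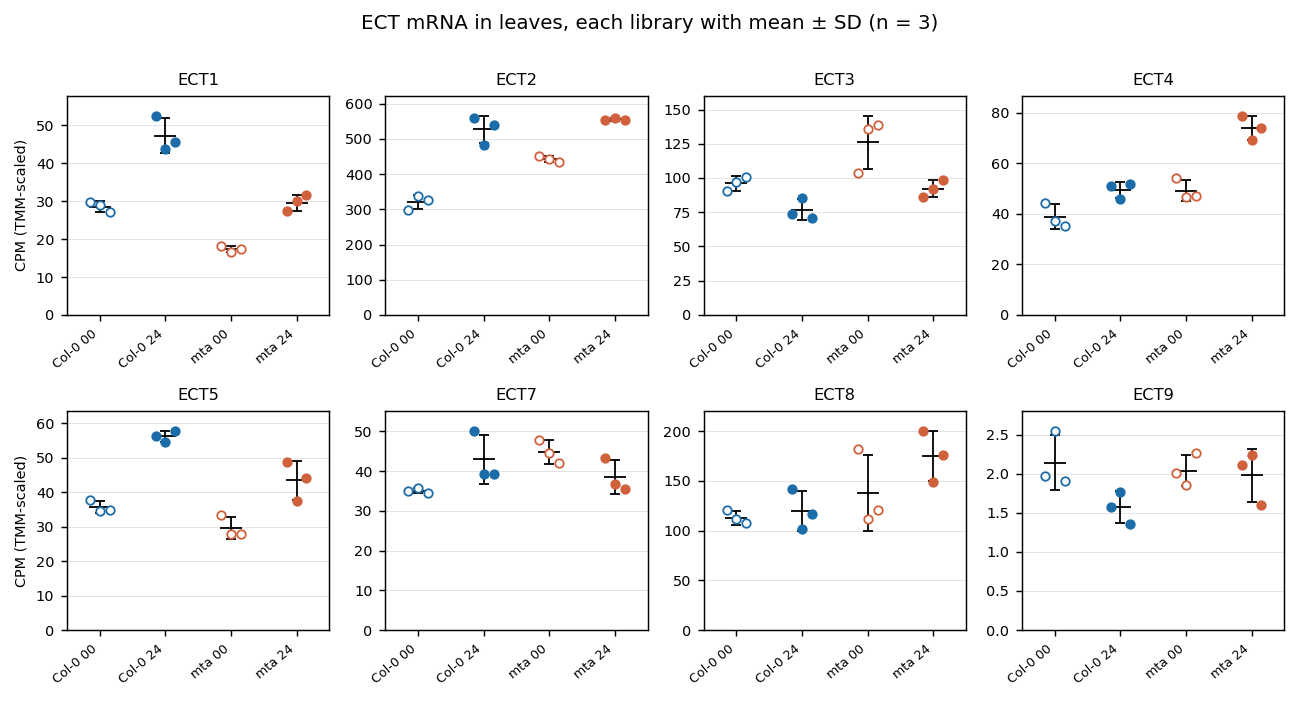
CPM of the 8 measurable ECT mRNAs in leaves (vertical axes, TMM-scaled, each from 0), with 1 point per library, horizontal bars at the mean and error bars of 1 SD (n = 3), in Col-0 (blue) and mta (orange) at 00 (open) and 24 (filled). ECT1 is lower in mta in both groups, at 16.6 to 18.1 CPM against 27.1 to 29.8 at 00 and 27.3 to 31.6 against 43.7 to 52.6 at 24.

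Comparing mta with Col-0 leaves, ECT1 was called lower in mta in both groups. At 00, 5 of 8 members were called (4 higher, 1 lower) and at 24 3 of 8 (1 higher, 2 lower), each against 28.7% of all genes (15.5% higher and 13.3% lower at 00, 14.5% and 14.2% at 24). ECT1 gave -0.72 ± 0.1 at 00 and -0.67 ± 0.1 at 24 (edgeR, adjusted p = 6.7e-04 and 6.6e-04), and both calls held in every alternative. Its seedling value after flg22 was in the other direction, 0.56. ECT2 was higher in mta at 00, at 434 to 451 CPM against 297 to 338, by 0.46 ± 0.1 (edgeR, adjusted p = 0.0061), in every alternative. At 24, ECT4 was higher in mta by 0.58 ± 0.11 (edgeR, adjusted p = 0.0029), also in every alternative. The green-tissue marker sum was higher in mta as well, at 44489 to 57980 CPM against 32252 to 42412 at 00 and 28384 to 30362 against 13735 to 24073 at 24, with 1 and 2 of 4 called higher. The dividing-cell sum was 19.5 to 27.4 CPM in mta against 16.5 to 26.1 at 00 and 7.07 to 12.3 against 9.43 to 14.9 at 24, with 0 of 6 called by edgeR in either. Their part in the ECT differences was not tested.

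The remaining calls were less stable. At 00, ECT3 (0.39 ± 0.13, edgeR, adjusted p = 0.036) was lost without any 1 Col-0 library at 00 (adjusted p 0.062 to 0.11) or without mta 00 replicate 2 (0.11) or 3 (0.13). ECT4 (0.34 ± 0.11, adjusted p = 0.039) was lost without Col-0 00 replicate 2 (0.11) or 3 (0.12) or mta 00 replicate 1 (0.12) or 3 (0.059), and ECT7 (0.35 ± 0.12, adjusted p = 0.041) without any 1 of the 6 libraries (0.059 to 0.11). All 3 were lost with no count filter (0.055 to 0.063), and ECT3 and ECT4 with only the compared groups fitted (0.067 and 0.075). ECT5 gave -0.27 ± 0.11 (edgeR, adjusted p = 0.089) and -0.36 (adjusted p = 0.038) without mta 00 replicate 1. At 24, ECT5 gave -0.37 ± 0.11 (edgeR, adjusted p = 0.026), lost without Col-0 24 replicate 1 (0.056) or 3 (0.084) or mta 24 replicate 2 (0.1) or 3 (0.063).

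ECT8 at 24 read 142, 102 and 117 CPM in Col-0 and 200, 149 and 176 in mta. No mta library was below the highest Col-0 library, and the log2 difference was 0.54 ± 0.19 (edgeR, adjusted p = 0.052). With the replicate number as a block it was 0.55 (adjusted p = 0.0052), under DESeq2 0.54 (adjusted p = 0.027), with only the compared groups fitted 0.55 (adjusted p = 0.036) and without Col-0 24 replicate 1 0.67 (adjusted p = 0.039). The test of the difference between the lines' changes from 00 to 24 called 0 of 8 members, against 9.74% of all genes, with 2 at an unadjusted p under 0.05. These were ECT7 (-0.51 ± 0.16, edgeR, adjusted p = 0.073) and ECT2 (-0.39 ± 0.14, adjusted p = 0.11), and DESeq2 called both (adjusted p = 0.043 and 0.015). ECT7 was also called without mta 24 replicate 1 (-0.60, adjusted p = 0.038).

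Uncapped RNA, which GMUCT reads, contains decay intermediates, and the 10 members were all tested there in seedlings. AT3G17340 and AT5G58200 cover most of ECT6 and ECT10 on the same strand. The source of the GMUCT reads given below for ECT6 and ECT10 therefore cannot be told apart. In untreated Col-0 the highest values per kilobase were those of ECT2 (49.9 ± 3.47 RPM per kilobase), ECT3 (42.8 ± 17.4) and ECT7 (42.0 ± 14.5), with overlapping ranges (SD, n = 3). ECT1 (24.8 ± 5.24) and ECT10 (23.8 ± 0.851) followed, also overlapping, and ECT6 (1.84 ± 0.514) and ECT9 (1.22 ± 0.264) were lowest. The overlap of ECT7 with ECT2 rests on replicate 2, the library that stands apart, where ECT7 read 209 RPM against 110 and 132 in the others and ECT3 read 67.2 RPM against 151 and 160. In untreated mta ECT7 was at 30.0 ± 5.45 RPM per kilobase and ECT2 at 49.5 ± 3.9, and in untreated 35SALKBH10B ECT7 was at 21 ± 6.53 and ECT2 at 42.3 ± 2.14, without overlap of ECT7 and ECT2 in either line. On the scale of log2(RPM + 1) minus log2(CPM + 1), ECT7 was at 1.83 in untreated Col-0, percentile 93.9 of 17380 genes, and ECT1 at 0.78, percentile 79.2. ECT2 was at -1.48 and ECT9 at -2.72, percentiles 13.8 and 2.4, around a median of -0.2 over all genes. The ECT9 value sets strand-unspecific mRNA counts against GMUCT reads.

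The authors' deposited table of uncapped over total RNA gave log2 ratios of 1.88 for ECT7 and -1.6 for ECT2 in untreated Col-0. For ECT10, which could not be read in mRNA here, the authors' deposited table gave 2.52, percentile 95.8 of its genes. In untreated 35SALKBH10B the authors' deposited table gave 1.08 for ECT7 and 2.05 for ECT10.

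After flg22 in Col-0, uncapped RNA of ECT1, ECT3, ECT6, ECT8 and ECT9 fell. Called were 5 of 10 members, all lower, against 50.6% of all genes (40.1% lower). Most genes read lower in RPM in this comparison: the median over all genes was -0.48 and that of the members -0.8, and 20.7% of called genes were higher. After TMM scaling the median over all genes was -0.03 and 53.4% of called genes were higher, so the values are given relative to the median as well. ECT6, at chr3:5916940-5920281 on the minus strand, read 6.97, 4.18 and 7.32 RPM untreated and 1.04, 2.19 and 2.0 after flg22. The ranges did not overlap, and the log2(RPM + 1) difference was -1.38 ± 0.26 (limma, adjusted p = 2.2e-04), or -0.9 relative to the median. ECT9 had 8, 41 and 43 reads after flg22, or 0.595, 1.29 and 1.83 RPM, against 3.52, 5.47 and 4.61 RPM untreated (limma, -1.33 ± 0.32, adjusted p = 0.0018; -0.85 relative to the median). ECT8 read 24.2, 14.8 and 27.6 RPM untreated and 9.3, 8.46 and 9.7 after flg22, without overlap (limma, -1.15 ± 0.29, adjusted p = 0.003; -0.67 relative to the median). These 3 calls held in all 14 alternatives.

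ECT1 uncapped RNA read 78.6, 53.7 and 80.8 RPM untreated and 34.0, 30.9 and 30.3 after flg22 (limma, -1.12 ± 0.29, adjusted p = 0.0034). The ranges did not overlap, but the call was lost after TMM scaling (-0.57, adjusted p = 0.073) and with edgeR on the recovered reads (-0.62, adjusted p = 0.054). ECT3 read 151, 67.2 and 160 RPM untreated and 32.5, 48.7 and 57.8 after flg22 (limma, -1.36 ± 0.44, adjusted p = 0.015). Its call was lost under both of those scalings (-0.81 and -0.90, adjusted p = 0.1 and 0.076) and without Col-0 untreated replicate 1 (0.059) or 3 (0.066) or Col-0 flg22 replicate 1 (0.074). Without Col-0 untreated replicate 2, the library that stands apart, ECT4 (-0.68, limma, adjusted p = 0.0046) and ECT5 (-0.83, adjusted p = 0.032) were called lower as well. ECT10, at chr5:23546329-23549605 on the plus strand, read 75.2, 80.8 and 77.7 RPM untreated and 105, 78.8 and 75.3 after flg22, with overlap. Its difference was 0.13 (limma, adjusted p = 0.55), but 0.68 after TMM scaling (adjusted p = 0.0046) and 0.69 with edgeR on the reads (adjusted p = 0.006). In the same libraries the sum of the 6 dividing-cell markers went from 27.7 to 32.6 RPM to 5.28 to 10.7.

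In mta, uncapped RNA of ECT4 and ECT8 was lower after flg22. These were 2 of 10 members against 22.5% of all genes (16.0% lower), with medians of -0.31 and -0.2. ECT4 read 41.3, 43.2 and 45.9 RPM untreated and 23.5, 19.8 and 22.4 after flg22. The ranges were far apart, and the difference was -0.96 ± 0.21 (limma, adjusted p = 0.0036) in every alternative called. ECT8 gave -0.89 ± 0.29 (limma, adjusted p = 0.034). This call was lost in 7 of 14 alternatives, among them without mta untreated replicate 1 (0.14) or 2 (0.13) or any 1 mta flg22 library (0.067 to 0.12). ECT1 read 77.8, 72.3 and 70.6 RPM untreated and 53.0, 55.1 and 55.0 after flg22, without overlap, and did not pass (limma, -0.43, adjusted p = 0.29). With only the compared groups fitted, ECT1 (-0.43, limma, adjusted p = 0.0034) and ECT2 (-0.33, adjusted p = 0.017) passed.

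In 35SALKBH10B, flg22 called 1 of 10 members, against 21.1% of all genes (11.1% lower), with medians of -0.33 and -0.1. This was ECT1, at 89.6, 72.8 and 95.8 RPM untreated and 41.5, 20.6 and 74.0 after flg22 (limma, -1.08 ± 0.29, adjusted p = 0.014). The ranges overlapped through flg22 replicate 3, and the call was lost without 35SALKBH10B flg22 replicate 1 (0.056) or 2 (-0.62, adjusted p = 0.1), without 35SALKBH10B untreated replicate 3 (0.064) and with only the compared groups fitted (0.14). Without flg22 replicate 3, the library that stands apart, ECT3 (-1.52, limma, adjusted p = 0.002), ECT8 (-0.88, adjusted p = 0.018) and ECT10 (-0.46, adjusted p = 0.024) were called lower. ECT3 read 213 RPM in that library and 58.1 and 44.1 in its mates.

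**Figure D4:**
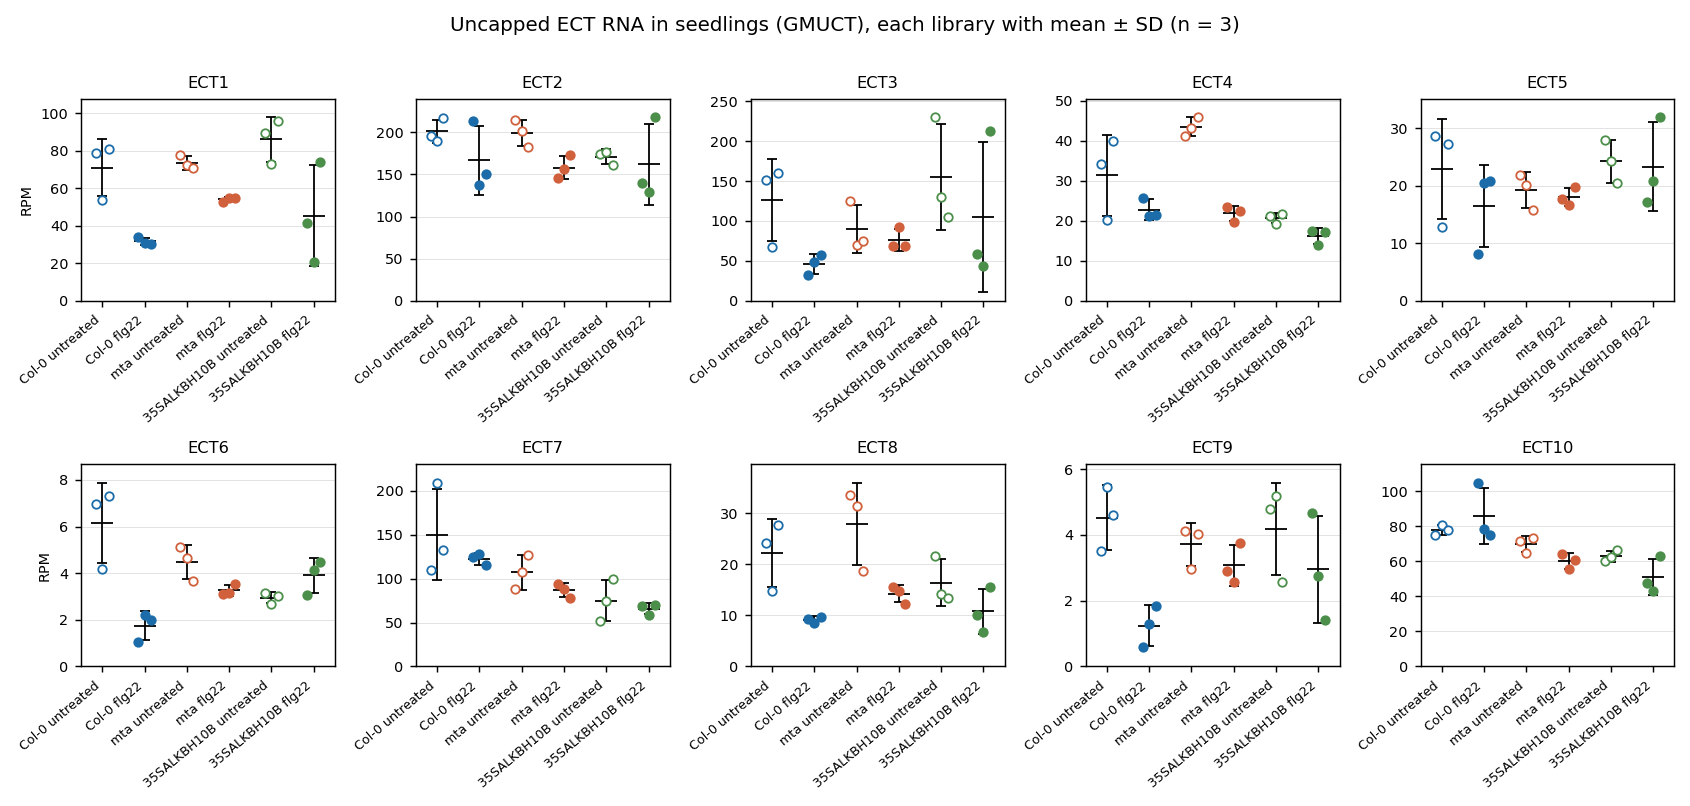
RPM of uncapped RNA of the 10 ECT genes in seedlings (vertical axes, each from 0), with 1 point per library, horizontal bars at the mean and error bars of 1 SD (n = 3), in Col-0 (blue), mta (orange) and 35SALKBH10B (green), untreated (open) and after flg22 (filled). ECT6 falls from 4.18 to 7.32 RPM to 1.04 to 2.19 in Col-0 and reads 2.67 to 3.14 and then 3.08 to 4.5 in 35SALKBH10B, and ECT7 is lower in 35SALKBH10B than in Col-0.

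Against Col-0, 35SALKBH10B had less uncapped ECT7 RNA with and without flg22. Untreated, 2 of 10 members were called lower, against 12.6% of all genes (9.18% lower). After flg22, 3 of 10 were called (1 higher, 2 lower), against 29.1% (20.6% higher, 8.5% lower). The medians of all genes were -0.13 and 0.24, and those of the members -0.27 and 0.23. ECT7, at chr1:17769938-17773518 on the minus strand, read 110, 209 and 132 RPM in untreated Col-0 and 52.1, 74.1 and 98.9 in untreated 35SALKBH10B. The ranges did not overlap (limma, -0.99 ± 0.23, adjusted p = 0.0098), and the call was lost without 35SALKBH10B untreated replicate 1 (-0.75, adjusted p = 0.059) and with only the compared groups fitted (0.058). After flg22 it read 124, 128 and 115 RPM in Col-0 and 68.9, 58.6 and 70.2 in 35SALKBH10B, a difference of -0.88 ± 0.23 (limma, adjusted p = 0.0077) that held in all 14 alternatives. ECT10 read 105, 78.8 and 75.3 RPM in Col-0 and 47.6, 43.4 and 62.9 in 35SALKBH10B after flg22, without overlap (limma, -0.74 ± 0.17, adjusted p = 0.0033; 0.088 with only the compared groups fitted).

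ECT6 was lower in 35SALKBH10B untreated and higher after flg22. It read 3.14, 2.67 and 3.03 RPM in untreated 35SALKBH10B, below every Col-0 library (limma, -0.83 ± 0.26, adjusted p = 0.038), but this call was lost in 10 of 14 alternatives, with adjusted p up to 0.13. Among these were the omission of any 1 untreated 35SALKBH10B library and of Col-0 untreated replicate 1 or 3. After flg22 it read 3.08, 4.14 and 4.5 RPM, above every Col-0 library (limma, 0.85 ± 0.26, adjusted p = 0.016; 0.65, adjusted p = 0.082, without Col-0 flg22 replicate 1, and 0.12 with only the compared groups fitted). The flg22 response of ECT6 therefore differed between the lines by 1.68 ± 0.36 (limma interaction term, adjusted p = 0.0049), or 1.32 relative to the median of all genes. It was called in all 19 alternatives and was 1 of 10 members called, against 14.9% of all genes (12.2% higher). Without single libraries further members passed the threshold against Col-0 after flg22: ECT1 (0.79, adjusted p = 0.013) and ECT3 (1.29, adjusted p = 0.039) without 35SALKBH10B flg22 replicate 2, and ECT9 (1.09, adjusted p = 0.014) without replicate 3, where its interaction also passed (1.21, adjusted p = 0.049). ECT4 was called lower in untreated 35SALKBH10B without Col-0 untreated replicate 2 (-0.81, limma, adjusted p = 0.0098). After TMM scaling ECT4 was called lower after flg22 (-0.78, limma, adjusted p = 0.0051), and the interaction of ECT10 passed (-0.92, adjusted p = 0.022). With both GMUCT libraries that stand apart left out, ECT4 was called lower after flg22 (-0.51, limma, adjusted p = 0.018), and the interaction of ECT10 passed (-0.62, adjusted p = 0.036). Markers differed between these lines after flg22. The dividing-cell sum was 18.6 to 23.2 RPM in 35SALKBH10B and 5.28 to 10.7 in Col-0, with 2 of 6 called higher. The green sum was 2289 to 3307 RPM in 35SALKBH10B and 1158 to 1808 in Col-0, with 1 of 4 called higher. Of all genes, 20.6% were called higher in this comparison. The part of the markers in these differences was not tested.

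In the fit over all groups no member's uncapped RNA was called between mta and Col-0. Untreated, 0 of 10 were called (1 at an unadjusted p under 0.05, 0 with edgeR on the reads), against 4.09% of all genes. After flg22, 0 of 10 were called (5 at an unadjusted p under 0.05, 1 with edgeR), against 2.88%. The differences after flg22 included 0.9 for ECT9, 0.76 for ECT1, 0.73 for ECT3 and 0.66 for ECT6 (limma, adjusted p = 0.13, 0.17, 0.4 and 0.17), and the ranges of these 4 did not overlap. With only the compared groups fitted, 5 passed after flg22: ECT1 (limma, adjusted p = 0.0063), ECT3 (0.05), ECT9 (0.046), ECT7 (-0.49, adjusted p = 0.031) and ECT8 (0.58, adjusted p = 0.045). With both GMUCT libraries that stand apart left out, ECT1 (adjusted p = 0.0062), ECT6 (0.041), ECT9 (0.026) and ECT10 (-0.50, adjusted p = 0.015) were called. The interaction of mta and flg22 called 0 of 10 (2 at an unadjusted p under 0.05, 0 with edgeR), against 2.02% of all genes; with both libraries left out it called ECT1 (0.87, adjusted p = 0.031), ECT3 (1.56, adjusted p = 0.01) and ECT6 (1.24, adjusted p = 0.014). Whether uncapped RNA moved apart from mRNA was tested in 1 limma fit over both assays. This called 0 of 8 members for flg22 in Col-0 (0.938% of 17380 genes), for flg22 in mta (0.426%), and for mta against Col-0 untreated (0.731%) or after flg22 (3.72%), with 0, 1, 0 and 2 at an unadjusted p under 0.05. Without GMUCT Col-0 flg22 replicate 3, ECT9 passed in the last of these (0.93, limma, adjusted p = 0.05). In simulated data this fit over both assays recovered 44.8% of 2-fold and 42.4% of 0.5-fold changes, so changes of that size could be missed.

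The loci of the readers themselves held m6A peaks. The authors called peaks for each library, and a peak was assigned to a member by its summit. The fold enrichments quoted are the authors' values for each peak and only describe it. In untreated Col-0 seedlings 8 of 10 members had a peak in both libraries, and 7 of the 8 that were measurable in mRNA, against 48.0% of the genes tested there. Of the same 8, a peak in every library was found for 6 in Col-0 after flg22 (42.1% of the genes tested), 7 in untreated mta (47.1%), 7 in mta after flg22 (37.4%), and 7 in 35SALKBH10B both untreated (42.4%) and after flg22 (41.5%). ECT1, ECT2, ECT3, ECT4, ECT5 and ECT7 had a peak in all 17 seedling libraries, ECT8 in 16, ECT10 in 15 and ECT9 in 3. ECT6 had none. The members' peaks came from the list labelled for the strand opposite to the gene. The list of the gene's own strand held peaks for 1 member, 22 in ECT8, and all 22 lay inside its overlap with AT1G79280.

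Positions repeated between libraries, counted as bases from the 3′ end of the annotated gene span. ECT3 had a summit near 536 bases (533 to 545) in 17 of 17 seedling libraries, with a fold enrichment of 2.53 to 4.81. Further summits of ECT3 lay near 1483 bases in 9 libraries and near 2115 in 11. ECT4 had a summit near 494 bases (446 to 519) in 17 of 17 libraries, with a fold enrichment of 3.37 to 7.96. ECT5 had one near 387 bases in 13, ECT7 near 853 in 11 and ECT10 near 226 in 9.

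Peaks of ECT2 were spread along the gene. It had 58 peaks in seedlings, of which 22 lay in the first 50% of the span and 25.9% in the last 20%. Its most frequent summits lay near 705 bases in 14 libraries, near 3091 in 10 and near 2495 in 9. A summit near 1770 bases was found in 6 libraries, all of them after flg22 and 2 from each line. Neighbouring summits lay near 1661 bases in 3 libraries, all untreated, and near 1845 in 5, of which 1 was after flg22. Another lay near 1592 bases in 3 libraries, of which 1 was untreated. Untreated libraries thus had ECT2 peaks in the same stretch. In ECT1 the summit nearest the 3′ end lay near 78 bases in 8 libraries and near 260 in 7. The first position was that of all 3 Col-0 flg22, all 3 untreated 35SALKBH10B and 2 flg22 35SALKBH10B libraries, and the second that of both untreated Col-0, 4 mta and 1 flg22 35SALKBH10B libraries. These are descriptions of peak lists whose depth is unknown, and no test of position was made.

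**Figure D5:**
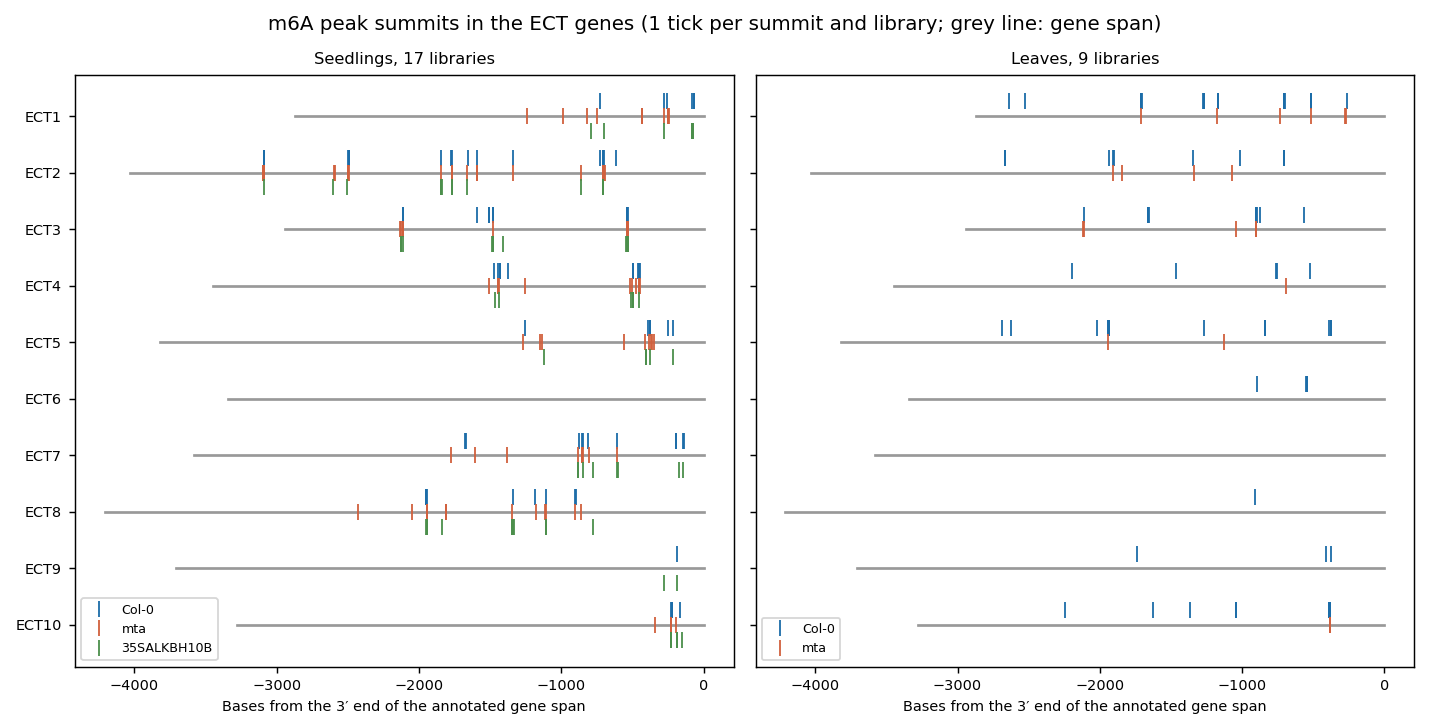
Summits of m6A peaks in the ECT genes, with 1 tick per summit and library, against the distance in bases from the 3′ end of the annotated gene span (horizontal axes, grey line the span), for 17 seedling libraries at left and 9 leaf libraries at right, in Col-0 (blue), mta (orange) and 35SALKBH10B (green). ECT3 (533 to 545 bases) and ECT4 (446 to 519 bases) have a summit in these ranges in 17 of 17 seedling libraries, ECT2 has summits along its span, and ECT6 has peaks in leaves of Col-0.

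In leaves, 2 of the 8 members measurable in mRNA had a peak in every Col-0 library at 00 (35.4% of the genes tested in leaf mRNA), 3 at 24 (38.2%) and 1 in mta at 00 (25.6%). The leaf lists reach a p of 0.01 where the seedling lists reach a q of 0.01, so the tissues are not compared. ECT3 had a peak in 9 of 9 leaf libraries, ECT10 in 8, ECT1 and ECT5 in 7 and ECT2 in 6. ECT7 had none. ECT6 had a peak in 3 libraries, which were the 3 of Col-0 at 24, each with a summit 546 to 548 bases from the 3′ end and a fold enrichment of 2.67 to 4.4. AT3G17340 lies on the same strand there, so the source of that signal cannot be told apart. The leaf peak of ECT10 near 386 bases was found in 7 libraries with a fold enrichment of 3.53 to 9.56, and AT5G58200 shares that strand.

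The other genes of the m6A pathway give a frame for these values. Of the further YTH proteins, ECT11, ECT12 and CPSF30, 0 of 3 were called for flg22 in Col-0 seedling mRNA (edgeR, 0 at an unadjusted p under 0.05). ECT11 was higher in mta than in Col-0, at 15 ± 1.98 CPM against 10.3 ± 0.133 untreated (SD, n = 3; edgeR, 0.54 ± 0.18, adjusted p = 0.017) and by 0.67 ± 0.19 after flg22 (adjusted p = 0.0037). In Col-0 leaves ECT11 fell by 0.79 ± 0.14 between 00 and 24 and ECT12 fell by 0.34, while CPSF30, whose YTH form belongs to the polyadenylation machinery, rose by 0.37 ± 0.11 (edgeR, adjusted p = 3.1e-04, 0.033 and 0.0098). Of 7 writer genes 6 were measured: 0 were called for flg22 in Col-0, and 3 were higher in mta in both treatments, namely VIR (0.8 untreated, 0.68 after flg22), FIP37 (0.57, 0.52) and HIZ2 (0.99, 0.81). Of 5 ALKBH genes 4 were measured for flg22 in Col-0, where ALKBH9A (4.14) and ALKBH10B (1.72) rose and ALKBH9C (-0.75) fell. Of the poly(A)-binding proteins, to which ECT2 is known to bind, PAB2 rose by 0.29 and PAB4 and PAB8 fell by 0.69 and 0.64 in the same comparison. In Col-0 leaves PAB8 fell by 1.36 and PAB4 by 0.53. Of all genes, 58.7% were called for flg22 in Col-0 seedlings and 68.3% between 00 and 24 in Col-0 leaves. In seedlings 18.1% of all genes were called higher in mta than in Col-0, both untreated and after flg22. These shares are the background for the counts of list genes.

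The genes whose seedling mRNA followed a member most closely were ranked by Pearson's r of log2 CPM over the 12 libraries, which form 4 groups, so that r mostly reflects group means. For ECT2 these were RLP3 (0.945), AT4G28170 (0.92) and CIPK15 (0.914), and 6 of 19886 genes exceeded 0.9. For ECT3 they were AT3G05910 (0.988), AT3G20370 (0.988) and AT1G60000 (0.987), and 1118 genes exceeded 0.9. For ECT4 they were VSP2 (0.948), AT3G51720 (0.927) and MAP1C (0.914), with 9 genes over 0.9.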

How the data were processed

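The members, and every gene list, were chosen with earlier results of these data known. Seedling and leaf mRNA were deposited by the authors as counts per annotated feature; featureCounts 2.0.1, STAR, MACS2 and TAIR10 are named in the submitters' processing notes, without their role here. GMUCT was deposited by the authors as RPM, from which whole reads were recovered for 100.0% of values within 0.01. m6A peak lists were deposited with a fold, a −log10 q and a score per peak. A deposited table of the authors gives a log2 ratio of uncapped over total RNA. The 12 seedling count columns that match no sample, and the 5 summary rows of the leaf tables (8.12 to 17.78% of all), were left out.

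Counts were filtered with filterByExpr and fitted over the 12 libraries of a tissue with edgeR 4.0.16 (quasi-likelihood, TMM; DESeq2 1.42.0 as an alternative). RPM of at least 1 in 3 libraries were fitted as log2(RPM + 1) with limma 3.58.1 over 18 libraries, which understates changes of low genes. P-values were Benjamini-Hochberg adjusted over all features tested, with a threshold of 0.05. Summits were chained into a group where neighbours lay within 25 bases, so a group can span more. The fits were tested on simulated data with genes changed to 2-fold or 0.5-fold. The fit of GMUCT relative to mRNA recovered 44.8% and 42.4% of these genes, and the other fits 86 to 97%. All members are named; list genes follow a rule of size. Alternatives were another scaling, filter, pseudocount, tool or fit, a replicate block, and each library left out. Replicate numbers pair samples by the data in 1 comparison, mta against Col-0 leaves at 24, where the deviations of 3 of 3 same-numbered pairs correlated at 0.136 to 0.297.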

Additional observations from a re-analysis of the deposited data

Results flagged for a closer look

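Among the members, 3 differences between lines in the response to flg22 passed the test of the difference itself. In seedling mRNA the log2 fold change with flg22 was less negative in mta than in Col-0, by 0.55 for ECT1 and by 0.44 for ECT3. Both values were below those of untreated seedlings in both lines, so the difference is a smaller fall in mta. The ECT1 call was lost in 5 of 17 alternatives (adjusted p up to 0.11, edgeR) and that of ECT3 in 0 of 17. In seedling GMUCT the response in 35SALKBH10B was higher than that in Col-0 by 1.68 for ECT6, which held in all 19 alternatives. AT3G17340 covers ECT6 on the same strand, so the source of these reads cannot be told apart.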

How the results depend on the processing

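Of 51 calls on members, 28 held in every alternative (11 of 18 in seedling mRNA, 11 of 19 in leaf mRNA, 6 of 14 in GMUCT); opposite-strand features and a 2-fold minimum are not in these totals. Of 2957 alternatives for single members, 100 lost a call, 69 gained one and 0 reversed a called direction; 177 values that were not called on either side changed sign. The cause of each change was not tested. Counts of called members that moved by over 1.5 times follow. With a 2-fold minimum, flg22 in Col-0 seedling mRNA called 2 and every other mRNA comparison 0. Leaving out 1 library gave 3 to 5 for flg22 in mta, 1 to 3 for mta against Col-0 untreated, 1 to 4 for the interaction, and in leaves 3 to 6 for 24 against 00 in Col-0, 2 to 4 for mta against Col-0 at 00 and 0 to 1 for the interaction. At 00, mta against Col-0 gave 2 with no filter and 3 with only the compared groups, and the leaf interaction 2 with DESeq2 and 1 with the replicate block. In GMUCT, flg22 in mta gave 1 with no filter or TMM factors, 4 with only the compared groups and 1 to 2 leaving out 1 library. For flg22 in 35SALKBH10B these were 0 with only the compared groups, 4 with both libraries that stand apart left out, and 0 to 4. For mta against Col-0 after flg22, edgeR on reads and TMM gave 1, only the compared groups 5 and both left out 4. For 35SALKBH10B against Col-0 untreated, a pseudocount of 0.1, edgeR, TMM and the replicate block gave 1 each, only the compared groups 0, and leaving out 1 library 0 to 3; after flg22 these were 1 with only the compared groups, 5 with both left out and 2 to 5. The interactions gave 3 for mta with both left out, and for 35SALKBH10B 2 with edgeR, TMM or both left out and 1 to 2. GMUCT relative to mRNA for mta against Col-0 after flg22 gave 0 to 1. Leaving out both libraries that stand apart, and reading opposite-strand features, were chosen after seeing the data. With peaks of a −log10 q of at least 10, the seedling groups had 1 member with a peak in every library, or 0 in Col-0 after flg22, and the leaf groups 0; at 5, flg22 35SALKBH10B had 4 and leaves 0. On the other strand's list all groups that moved had 0, except flg22 35SALKBH10B with 1. Leaving out 1 list gave 3 to 5 for Col-0 leaves at 00 and 1 to 3 for mta leaves.

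The replicate block changed the call of 5 values: ECT8 at 24 (given above), ECT8 between 00 and 24 in mta (0.36, edgeR, adjusted p = 0.019), ECT5 in mta against Col-0 at 00 (-0.27, adjusted p = 0.038), ECT7 in the leaf interaction (-0.50, adjusted p = 0.027) and GMUCT ECT6 in 35SALKBH10B against Col-0 untreated (-0.83, limma, adjusted p = 0.05). It changed no other call.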
